A study of Zea mays with 36 samples.

Results

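The genes described here belong to the C4 carbon cycle of maize, its regulators and Rubisco, and were chosen by name: ME1, mdh6, Ppdk1, pdrp1, PPCK1 and ssu1, 6 of the 771 genes that the array annotation names. All probes annotated to them were taken, which gave 23 of the 33280 spots of the series, 10 on the first of 2 slide sets (set 1) and 13 on the second (set 2). Of these, 21 carried values, and 1 probe of ssu1 and 1 of pdrp1 on the second set did not. On the first set ME1 had 2 probes, mdh6 1, PPCK1 5 and ssu1 2. On the second set mdh6 had 3 probes with values, Ppdk1 6, pdrp1 1 and ssu1 1, so that only mdh6 and ssu1 were measured on both.

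RNA of shoot apical meristems (SAM, the stem cell dome of the shoot) was compared with RNA of whole shoots, both from B73, a maize inbred line, at 14 days. Each of 6 replicates set a pool of 6 to 10 laser-captured meristems, cut with leaf primordia P0 and P1, against a pool of 6 seedlings without roots, which themselves contain meristem. The same pairs were hybridised to 1 slide of each set, 12 slides in all, with meristem RNA in Cy3 in replicates 1, 3 and 5 and in Cy5 in replicates 2, 4 and 6, and each slide was scanned at 3 laser settings. RNA was isolated in another way from each tissue, which cannot be told apart from the tissue itself, and both RNAs were amplified before labelling.

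In C4 plants such as maize, carbon dioxide is first bound as an organic acid in mesophyll cells and is released again around Rubisco in the bundle sheath cells that ring the veins. In the mesophyll, pyruvate phosphate dikinase (Ppdk1) makes the acceptor phosphoenolpyruvate, phosphoenolpyruvate carboxylase binds the carbon, and NADP-malate dehydrogenase (mdh6) makes malate. In the bundle sheath, NADP-malic enzyme (ME1) splits malate and Rubisco, of which ssu1 encodes a small subunit, fixes the released carbon dioxide. The cycle is set by light through 2 regulators measured here: pdrp1, a protein that inactivates pyruvate phosphate dikinase by adding a phosphate and reactivates it by removing that phosphate, and PPCK1, a kinase that phosphorylates phosphoenolpyruvate carboxylase.

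All values below are log2 ratios of the 2 tissues on a slide, with the median probe of each scan set to 0 and the 3 scans of a slide averaged. The log base of the deposited values was inferred from the values themselves, as described under the processing, and every fold below rests on it. Which tissue is the numerator is not given in the sources used here. Photosystem and light-harvesting genes, none of them among the 6, had a median ratio of −6.82 over 8 genes in set 1 and of −5.15 over 6 genes in set 2. Exceptions in set 1 were Cab-m7 at 1.09, which passed the test below on the positive side, and the oxygen-evolving gene OEE3 at 0.26, which did not pass it. Each had 1 probe there, and in set 2 they lay at −4.28 and −6.07 and both passed on the negative side. Probe means in set 2 ranged from −7.48 to −0.04 for Cab-m7 and from −7.14 to −4.99 for OEE3. For CP24, another gene of this check, at −2.56 in set 2, they ranged from −6.89 to 1.71. The genes of the meristem check, kn1, lg3 and TE1, lay on the positive side in both sets, as did the repressor gene rs2. Medians over these 4 genes were 1.18 and 2.59. The smallest ratio was that of kn1 in set 1, at 0.30 with 1 of 6 slides negative and probe means from −0.22 to 0.81. In set 2 kn1 lay at 1.95, with probe means from −0.17 to 4.06. Negative ratios are therefore called the seedling side, as the likely direction only. How the 2 tables were normalized is not given in the sources used here. They were treated as normalized apart, so tests were made within a set. Precision is limited by how many slides there are, and the typical (median) standard error per probe came to 0.159 in set 1 and 0.119 in set 2. In tissue samples, fewer cells of a type and less RNA per cell cannot be told apart.

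Of the 10 probes with values on the first set, 7 passed an adjusted p of 0.05 toward the seedling (limma, Benjamini-Hochberg over all probes), 1 passed toward the SAM and 2 missed it. Among all 18302 probes of that set 31.0% passed toward the seedling and 31.5% toward the SAM. Of the 11 probes with values on the second set, 10 passed toward the seedling and 1, a Ppdk1 probe, did not, against 31.2% of all 12027 probes toward the seedling and 33.4% toward the SAM. The median ratio of the member probes was −2.71 and −5.58 in the sets, beside 0.04 and 0.03 over all probes. On the first set 6 member probes were negative on all 6 slides, against 25.7% of all probes, and on the second set 10 were, against 27.4%. In set 1, the probe that passed toward the SAM and both that missed the threshold were PPCK1 probes.

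**Figure D1:**
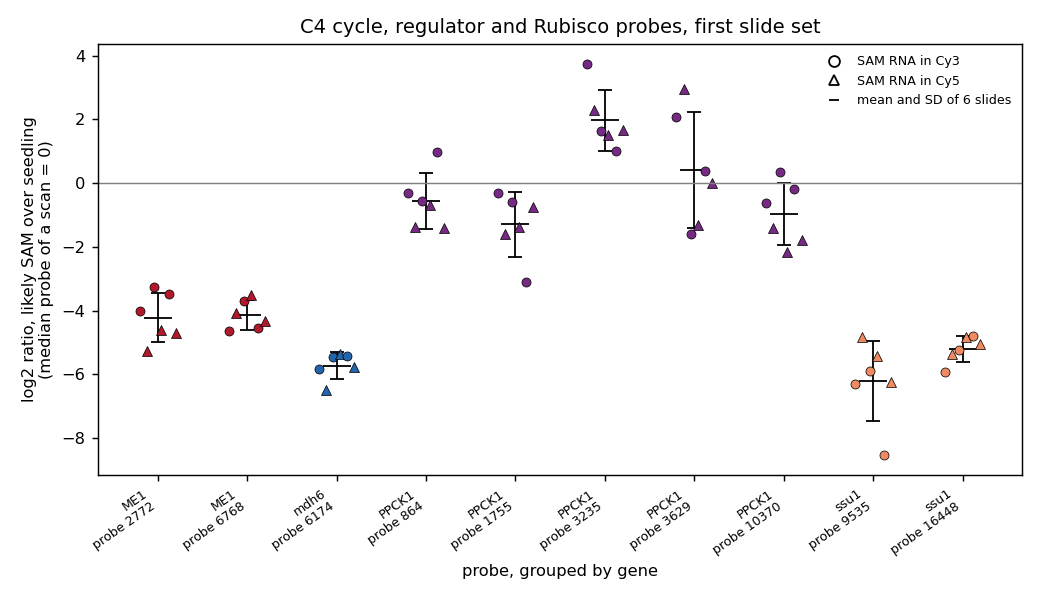
Log2 ratio (likely SAM over seedling, vertical axis) of each of the 10 probes on the first slide set, with a circle for each slide with SAM RNA in Cy3, a triangle for each slide with SAM RNA in Cy5, and the mean and SD of 6 slides as a bar. The probes of ME1, mdh6 and ssu1 lie between −8.54 and −3.28 on every slide, while the 5 PPCK1 probes have means from −1.29 to 1.98 and disagree in sign.

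Rubisco comes first among the bundle sheath genes. In set 1 ssu1 had a mean ratio of −5.71 ± 0.60 (SD, n = 6) as the mean of its 2 probes, a 52.2-fold difference toward the seedling (limma adjusted p = 3.80e-06). Its lowest slide lay at −6.67, the median at −5.61 and the highest at −5.10, so that every slide was far on the seedling side. The 2 probes differed in spread: probe 16448 lay at −5.20 ± 0.42, and probe 9535 at −6.21 ± 1.27 with its lowest slide, replicate 5, at −8.54. On the second set the single ssu1 probe with values, 703, lay at −5.64 ± 0.40 (lowest −6.15, median −5.58, highest −5.10), a 49.8-fold difference (limma adjusted p = 2.28e-07). Maize has further, near-identical small subunit genes, and a cDNA probe may bind their transcripts too, which was not tested.

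The malic enzyme gene ME1, the other bundle sheath gene, lay less far to the seedling side. Its mean on the first set was −4.18 ± 0.43, an 18.1-fold difference, with the lowest slide at −4.67, the median at −4.20 and the highest at −3.49 (limma adjusted p = 5.52e-06). The 2 probes gave nearly the same mean, −4.23 ± 0.77 for probe 2772 and −4.13 ± 0.46 for probe 6768. Their dye terms stood apart, though the difference between them was not tested. Probe 2772 lay between −4.02 and −3.28 with SAM in Cy3 and between −5.27 and −4.61 with SAM in Cy5, without overlap, and its dye term of 0.64, signed so that a higher ratio with SAM in Cy3 is positive, passed (limma adjusted p = 0.0455). That of probe 6768 was −0.17 (limma adjusted p = 0.532). Dye terms passed for 2 of the 10 member probes in set 1, against 12.7% of all its probes, and for 0 of 11 in set 2, against 8.41%.

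Of the mesophyll enzymes, mdh6 was measured on both sets and lay far on the seedling side on every slide. In set 1 its probe lay at −5.73 ± 0.43, a 53.2-fold difference (lowest slide −6.51, median −5.63, highest −5.38), with a limma adjusted p of 3.80e-06. On the second set the mean of its 3 probes lay at −5.32 ± 0.45, a 40.0-fold difference (lowest −5.90, median −5.28, highest −4.72), with a limma adjusted p of 5.37e-07. Probes 5559, 8661 and 13916 had means of −5.20, −5.20 and −5.58 there. These 3 means lay within 0.38 log2 units of each other, and no slide value of any mdh6 probe lay above −4.34.

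**Figure D2:**
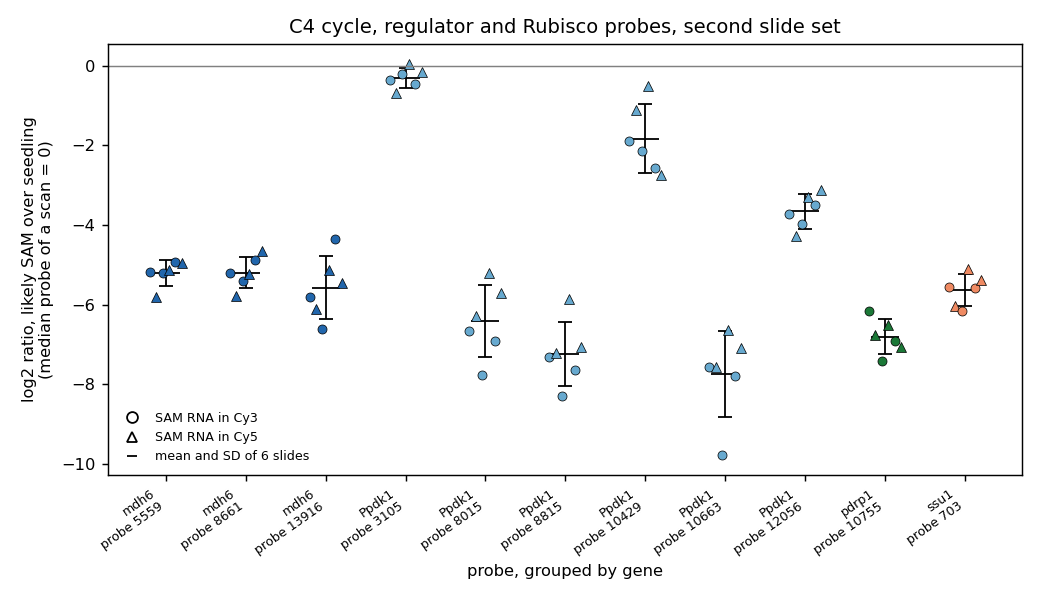
Log2 ratio (likely SAM over seedling, vertical axis) of each of the 11 probes on the second slide set, drawn as for the first set. The mdh6, pdrp1 and ssu1 probes lie between −7.41 and −4.34 on every slide, while the 6 Ppdk1 probes have means from −7.73 to −0.31.

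Ppdk1, the other mesophyll enzyme, was covered by 6 probes that did not agree. As the mean of these probes the gene lay at −4.53 ± 0.59 on the second set (lowest slide −5.36, median −4.56, highest −3.58), a 23.1-fold difference (limma adjusted p = 7.23e-07). Probes 8015, 8815 and 10663 lay at −6.42 ± 0.90, −7.23 ± 0.80 and −7.73 ± 1.08. Probe 12056 lay at −3.66 ± 0.43, probe 10429 at −1.83 ± 0.86 and probe 3105 at −0.31 ± 0.26, where 5 of 6 slides were negative (limma adjusted p = 0.0566). Probe 3105 passed without replicate 4, at −0.39 (limma adjusted p = 0.039), and in the low scan alone, at −0.72, while probe 10429 lay at −1.46 on the 3 Cy5 slides alone and missed the threshold there (limma adjusted p = 0.0633). The probe means were therefore up to 7.43 log2 units apart within a gene, and by the median of the probes on each slide the gene lay at −5.04. The gene is known to give a long transcript for the chloroplast enzyme of the C4 cycle and a shorter one for a cytosolic enzyme. Which transcript or part of it each probe holds was not analysed here, and its part in the spread was not tested.

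By gene value, the regulator pdrp1 was farther to the seedling side than any other of the 4 genes on the second set. Its 1 probe with values, 10755, lay at −6.80 ± 0.44, a 111-fold difference, with the lowest slide at −7.41, the median at −6.83 and the highest at −6.15 (limma adjusted p = 2.22e-07). No dye dependence was detected for it, at a dye term of −0.02 (limma adjusted p = 0.95). As the gene value is that of a single clone, it has no second probe to set beside it. Single Ppdk1 probes, 8815 at −7.23 and 10663 at −7.73, had means farther still to the seedling side.

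The other regulator, PPCK1, had no settled ratio. As the mean of its 5 probes it lay at −0.09 ± 0.59 on the first set, with the lowest slide at −0.81, the median at −0.17 and the highest at 0.92 (limma adjusted p = 0.706), and the slides fell on both sides of 0. By the median of the probes on each slide it lay at −0.65 and passed (limma adjusted p = 0.0105), so the call depended on how the probes were summarised. Probe 3235 passed on the SAM side at 1.98 ± 0.96, with all 6 slides positive between 1.01 and 3.75 (limma adjusted p = 0.00226). Probes 10370 at −0.97 ± 0.97 and 1755 at −1.29 ± 1.02 passed on the seedling side (limma adjusted p = 0.00223 and 0.0203). Probe 864 lay at −0.56 ± 0.88 (limma adjusted p = 0.0666), and passed without replicate 5 at −0.80 (limma adjusted p = 0.0085) and on the Cy5 slides alone at −1.16 (limma adjusted p = 0.0161). Probe 3629 lay at 0.42 ± 1.82 (limma adjusted p = 0.595).

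PPCK1 probe values moved between scans, slides and dyes. Probe 3235 lay at 3.07 in the low scan and at 1.41 in the high scan, and was positive in both. In the low scan of all 6 slides, probe 3629 took the value most often repeated in the scan, taken here to mean that neither channel rose above the scanner's floor. None of the other 20 probes took that value in any scan. Probe 1755 lay at −1.20 without replicate 2 and at −1.25 without replicate 4, near its value over all slides, but missed the threshold (limma adjusted p = 0.0588 and 0.0564). It also missed it on the Cy3 slides alone, at −1.33, and in the low scan alone, at a larger −2.28 (limma adjusted p = 0.118 and 0.1). Without replicate 5 it lay nearer to 0, at −0.84, and passed (limma adjusted p = 0.00838). Probe 10370 had a dye term of 0.81 (limma adjusted p = 0.0375), lay between −0.64 and 0.34 with SAM in Cy3 and between −2.15 and −1.41 with SAM in Cy5, and lay at −0.16 in the former orientation alone, where it did not pass (limma adjusted p = 0.604). PPCK1 belongs to a small kinase gene family, and binding of other members to its probes was not tested.

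The members were next compared with each other on the same slides, by the difference of their log2 ratios and an exact two-sided sign-flip permutation test over the 6 slides, 6 pairs in each set. The smallest p this test can give with 6 slides is 0.03125, and p-values were adjusted over the 6 pairs of a set by the Benjamini-Hochberg method. These are differences of ratios, so they do not compare the amounts of 2 transcripts. From the same test, the range of the 6 slide differences is a 96.9% interval for the difference.

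**Figure D3:**
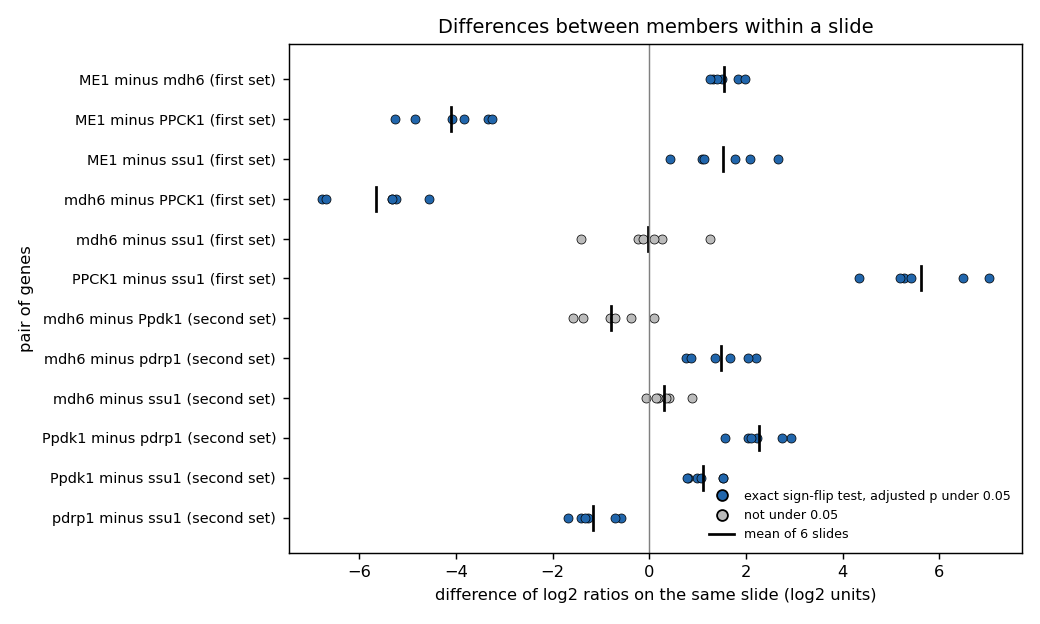
Difference of the log2 ratios of 2 genes on the same slide (horizontal axis, log2 units) for the 12 pairs measured together, with a point for each of 6 slides and a bar at their mean. Blue points mark pairs with an adjusted p under 0.05 in the exact sign-flip test, and grey points the 3 pairs without it: mdh6 with ssu1 in both sets and mdh6 with Ppdk1.

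On the first set the bundle sheath genes ME1 and ssu1 lay apart from each other, while no difference between mdh6 and ssu1 was detected. ME1 lay above mdh6 by 1.55 ± 0.29 on the first set (lowest slide 1.26, highest 1.98), that is a 2.94-fold smaller seedling excess, on 6 of 6 slides (exact sign-flip adjusted p = 0.0375). It lay above ssu1, its partner in the bundle sheath, by almost as much, 1.53 ± 0.80 (0.43 to 2.66), again on 6 of 6 slides (exact sign-flip adjusted p = 0.0375). The latter difference had a mean of 2.17 over the slides with SAM in Cy3 and of 0.88 over those with SAM in Cy5, and the orientations did not overlap. The mesophyll gene mdh6 and the bundle sheath gene ssu1 differed by −0.03 ± 0.86 on the first set, with 3 slides on each side of 0 between −1.41 and 1.25 (exact sign-flip adjusted p = 0.844). That difference was positive on all 3 slides with SAM in Cy3, at a mean of 0.54, and negative on all 3 with SAM in Cy5, at −0.59. Without replicate 2 it was 0.25. On the second set mdh6 lay above ssu1 by 0.31 ± 0.32 (−0.06 to 0.87) on 5 of 6 slides, which did not pass (exact sign-flip adjusted p = 0.0625), though it did in the medium scan alone.

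On the second set Ppdk1, as the mean of its probes, lay above ssu1 by 1.11 ± 0.33 on 6 of 6 slides (0.78 to 1.52, exact sign-flip adjusted p = 0.0469). With the median of its probes the difference was 0.60, also past the threshold (exact sign-flip adjusted p = 0.0469). The sign of this difference depended on the probe: 3 of the 6 Ppdk1 probes lay below ssu1 on all 6 slides and the other 3 above it on all 6. Between the mesophyll enzymes, mdh6 lay below Ppdk1 by a mean difference of −0.79 ± 0.62 on 5 of 6 slides (−1.58 to 0.10), which did not pass (exact sign-flip adjusted p = 0.0625), and by −0.20 with the median of the probes.

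The 2 regulators lay on opposite sides of the enzymes of their own set, by gene value. PPCK1 lay above each enzyme of the first set on 6 of 6 slides, by 5.62 ± 0.97 over ssu1 (4.33 to 7.03). The corresponding differences were −5.65 ± 0.88 for mdh6 minus PPCK1 (−6.77 to −4.57) and −4.09 ± 0.81 for ME1 minus PPCK1 (−5.26 to −3.25), and all 3 pairs had an exact sign-flip adjusted p of 0.0375. Each of the 5 PPCK1 probes lay above each of the 5 enzyme probes on every slide. The other regulator lay on the far side of the enzymes: pdrp1 minus ssu1 was −1.16 ± 0.43 (−1.68 to −0.58) and mdh6 minus pdrp1 was 1.48 ± 0.60 (0.75 to 2.20), on 6 of 6 slides each (exact sign-flip adjusted p = 0.0469 for both).

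Between pdrp1 and its own target enzyme the answer depended on the probe. Ppdk1 minus pdrp1 was 2.27 ± 0.50 by the mean of the Ppdk1 probes (1.56 to 2.94, 6 of 6 slides, exact sign-flip adjusted p = 0.0469) and 1.76 by their median. Taken one by one, Ppdk1 probes 3105, 10429 and 12056 lay above pdrp1 on all 6 slides, by means of 6.49, 4.97 and 3.14. Probe 8015 lay 0.38 ± 0.81 above it, with 2 slides negative, while probe 8815 differed from it by −0.43 ± 0.66 and probe 10663 by −0.94 ± 0.87, the latter negative on all 6 slides. The 3 Ppdk1 probes with the largest seedling excess therefore had means within 1 log2 unit of pdrp1.

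Ordered from the seedling end, the first set gave mdh6, ssu1, ME1 and PPCK1, and only the neighbours mdh6 and ssu1 did not differ past the threshold. The second set gave pdrp1, ssu1, mdh6 and Ppdk1, where the neighbours ssu1 and mdh6, and mdh6 and Ppdk1, did not. Among all named genes of a set, counted from the seedling end, pdrp1 ranked 5 of 455, ssu1 11, mdh6 15 and Ppdk1 27. In set 1 mdh6 ranked 30 of 582, ssu1 31, ME1 43 and PPCK1 329. By gene value, 3 of 4 members passed toward the seedling in set 1 and 4 of 4 in set 2, where 45.2% and 45.7% of all named genes did, and none passed toward the SAM, where 27.1% and 27.9% did.

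**Figure D4:**
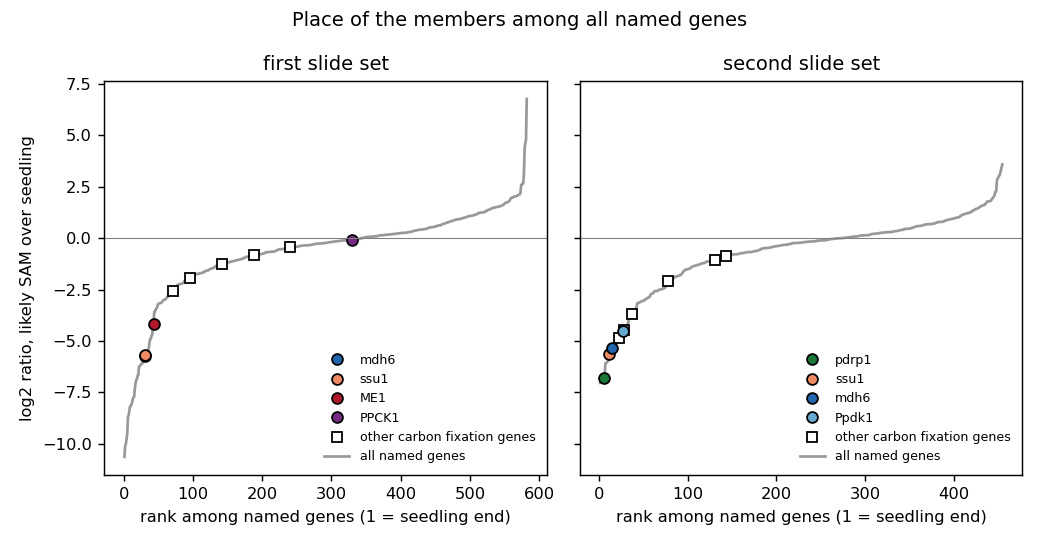
Log2 ratio of every named gene (grey line, vertical axis) against its rank from the seedling end (horizontal axis), with the members as coloured circles and the other measured genes of the carbon fixation list, pdk1 among them, as open squares. All members except PPCK1, at rank 329 of 582, lie in the steep left end of the curve, where the points of mdh6 and ssu1 on the first set, at ranks 30 and 31, cover each other.

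The ratios of ME1, mdh6, ssu1 and Ppdk1 depended on the laser setting of the scan. From the low to the high scan, ssu1 went from −6.23 to −5.16 on the first set, a difference of 1.07 ± 0.35, and from −6.24 to −4.78 on the second, 1.47 ± 0.49. The same held for mdh6, by 1.09 ± 0.28 and 1.47 ± 1.21, for ME1, by 0.63 ± 0.29, and for Ppdk1, by 1.28 ± 0.74. In all 6 of these cases all 6 slides moved toward 0 (exact sign-flip adjusted p = 0.0417 over 8 tests). The change of pdrp1, 0.94 ± 0.82 with 5 of 6 slides upward, did not pass (exact sign-flip adjusted p = 0.0714), nor did that of PPCK1 at 0.07 ± 1.14 (exact sign-flip adjusted p = 0.938). Over all probes of a set the median change was −0.04 and −0.02, but among probes with a ratio under −3 it was 1.74 over 967 probes and 0.72 over 635. The folds given above are thus averages over scans that differ by up to 1.47 log2 units, and how near the weaker channel lay to the scanner floor was not analysed here.

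**Figure D5:**
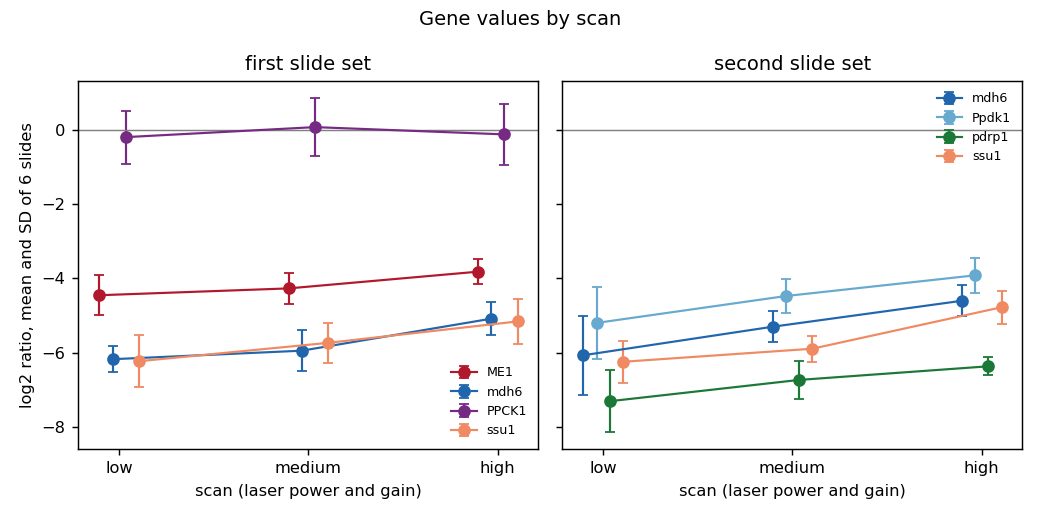
Log2 ratio of each gene (vertical axis, mean and SD of 6 slides) in the low, medium and high scan (horizontal axis), in the first slide set (left) and the second (right). The means of the genes far on the seedling side lie nearer to 0 in the high scan than in the low scan, by 0.63 to 1.47, and PPCK1 stays near 0 in each scan.

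Single probes of one gene differed in this respect. Probe 2772 of ME1 changed by 1.13 ± 0.43 from the low to the high scan and probe 6768 by 0.14 ± 0.23. For ssu1 on the first set the changes were 1.83 ± 0.80 at probe 9535 and 0.31 ± 0.22 at probe 16448. The 3 Ppdk1 probes farthest to the seedling side changed by 1.93 to 2.76, while probes 12056, 10429 and 3105 changed by −0.02, 0.07 and 0.65. Probe 10663 rested on a wide spread, 2.29 ± 2.80, with 1 slide moving the other way.

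Other genes of carbon fixation were taken from a list of names, of which 5 genes were measured in set 1 and 6 in set 2. In set 1, 4 of 5 passed toward the seedling, where 45.2% of all named genes did, and none toward the SAM. One of the 4, pdk1, matched by its symbol alone, and its synonym pdlk1 stands for a pyruvate dehydrogenase kinase, which is no enzyme of carbon fixation. Without pdk1, at −1.28 ± 0.24, 3 of 4 passed and the median was −1.39, beside −0.24 over all named genes. In set 2 all 6 passed toward the seedling, where 45.7% of all named genes did, and their median was −2.89 beside −0.22. Rubisco activase (rca1), which keeps Rubisco catalytically ready, lay at −2.58 ± 0.54 in set 1 and at −4.49 ± 0.44 in set 2, where its 4 probes ranged from −7.18 to −0.82. The triose phosphate translocator gene tpt, whose product exports sugar phosphates from the chloroplast, lay at −4.88 ± 0.14, the smallest spread among the listed genes of that set. Genes listed, by symbol alone, as glyceraldehyde-3-phosphate dehydrogenase genes of the chloroplast were nearer to 0. They were gpa1 at −0.89 ± 0.39 on the second set and gpb1 at −0.45 ± 0.65 on the first, where gpb1 did not pass (limma adjusted p = 0.0769). What these symbols stand for was not checked further. The ratio of gpb1 was −0.84 on the Cy3 slides alone and −0.63 without replicate 6, where it passed, and −0.07 on the Cy5 slides alone and −0.26 without replicate 4, where it did not.

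Relatives of the C4 enzymes were also on the list. The phosphoenolpyruvate carboxylase gene pep4 lay at −1.08 ± 0.36 on the second set. The cytosolic malate dehydrogenase gene mdh4 lay at −1.95 ± 0.31 on the first set, as a mean of 7 probes of which 1, at 0.54, passed on the other side, and at −2.11 ± 0.31 on the second. The malic enzyme gene me2 lay at −0.84 ± 0.51 in set 1 and at −3.66 ± 0.28 in set 2, and in set 1 it lay at −0.45 on the Cy5 slides alone, where it did not pass (limma adjusted p = 0.132). The C4 carboxylase gene pep1 and the phosphoenolpyruvate translocator gene ppt1 had a probe each on the second set but no value.

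The named genes whose slide values were nearest to those of a member, by the root mean square difference over 6 slides, came partly from the photosynthetic apparatus. Nearest to Ppdk1 was rca1, at 0.22 log2 units, with see2b next at 0.53. Both Ppdk1 and rca1 are means of probes that disagreed, from −7.73 to −0.31 for Ppdk1 and from −7.18 to −0.82 for rca1. Nearest to ssu1 on the second set was the light-harvesting gene lhcb5 at 0.41, followed by mdh6 at 0.43. Nearest to pdrp1 were psad1, a subunit of photosystem I, at 0.55 and the leaf ferredoxin reductase gene L-FNRII at 0.77. On the first set mdh6 had CP22, a photosystem II protein gene, as its nearest at 0.41 and gar2 second at 0.53, and ssu1 had gar2 at 0.62 and the ferredoxin reductase gene L-FNRI at 0.64. Nearest to ME1 were MPK4 at 0.67 and MPAO at 0.70. PPCK1, near 0, had orp1 at 0.37 and prpo2 at 0.38, and mdh6 on the second set had LOC541622 at 0.36.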

How the data were processed

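Two-colour cDNA slides were read from 2 deposited value tables, each with a column per scan. The deposited values are log ratios of the channels, read as natural log and converted to log2. Neither base nor normalization is stated there (not given in the sources used here). The base was read from values repeated at least 3 times, taken as spots with a channel at the floor: for pairs on either side of the most repeated value, 0.5 times their distance was the log of a whole number (tolerance 0.0005) in 1.13% of pairs for the natural log, against 0.0681% for log2 and 0.1% by spacing alone. Slides of opposite dye correlated at r of at least 0.597, so all run one way. Their r was 0.701 to 0.861 in set 1 and 0.597 to 0.745 in set 2. Slides of the same dye correlated more closely, at 0.857 to 0.903 and 0.852 to 0.901. One scan (replicate 4, high, first set) names seedling tissue for both dyes, and its sample name was followed. Another, the high scan of replicate 1 on the second set, was placed by its title and table.

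Of 19200 and 14080 spots, 18302 and 12079 held values, and 53 identical spots were counted as 1. Probes took genes from the platform annotation (1800 and 886 with 1 gene, 23 and 0 with several, the rest unnamed), and symbols from a gene table of Zm-B73-REFERENCE-NAM-5.0, which named 562 of 583 and 491 of 510 gene IDs. It holds no descriptions, so lists were matched by symbol only. Gene values are means of a gene's probes. The fit per set was limma (version 3.58.1, R 4.3.3) with the mean ratio and the dye orientation as terms, with Benjamini-Hochberg adjustment. The labels call the replicates biological. Each pair of RNA pools had 1 slide in a set, so limma p-values rest on the spread between slides. Differences between pools and those of the technical steps cannot be told apart in it. SDs include dye variation. Scripts were tested on simulated data. Python 3.11.15, pandas 2.3.3, numpy 2.4.6 and matplotlib 3.10.9 were used.

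Members, lists and tests were chosen with earlier results of these data known. Named were all members and their probes, the listed carbon fixation genes, the 2 nearest named genes of each member, and meristem and photosystem checks. The alternatives were no centring, equal spread, single scans, no dye term, robust eBayes, complete values, medians of probes or slides, a 2-fold limit, single dye orientations and each replicate left out. Leaving out scans at the floor, and pdk1 from the list, were added after seeing the data.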

Additional observations from a re-analysis of the deposited data

Results flagged for a closer look

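Of 52 sets of 6 slide values examined, 2 had a slide far from the others, and chance alone gives about 1 in 20. The mdh6 probe 5559 on the second set had replicate 2 at −5.81, with the next slide at −5.21. The Ppdk1 probe 10663 had replicate 3 at −9.77, with the next at −7.80. Replicate 3 was also the lowest slide of Ppdk1 probes 8015 and 8815.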

How the results depend on the processing

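The calls of ME1, mdh6, Ppdk1, pdrp1 and ssu1 held under every alternative run, and so did the 9 differences between members that passed, wherever a test was possible. With 5 or 3 slides the sign-flip test cannot go below 0.0625 or 0.25, so those settings give values only. Without single replicates ME1 minus mdh6 ranged from 1.47 to 1.61, ME1 minus ssu1 from 1.30 to 1.74 and Ppdk1 minus pdrp1 from 2.14 to 2.41. The gene value of PPCK1 turned positive in the medium scan alone (0.069), on the Cy3 slides alone (0.19) and without replicate 3, 4 or 5 (range of all replicates left out, −0.27 to 0.026), and passed as the median of its probes (−0.65). PPCK1 probe 864 turned on the Cy3 slides alone (0.035), and probe 3629 in the low scan alone (−0.053) and without replicate 1 or 2 (range −0.18 to 0.89). The difference mdh6 minus ssu1, −0.028 on the first set, was positive in the low (0.054) and high (0.073) scans, on the Cy3 slides (0.54) and without replicate 2 (0.25) or 4 (0.013), and passed on the second in the medium scan alone (0.59). The cause was not tested. Of all probes, 3559 and 3060 on the first set and 2138 and 1737 on the second passed with at least 2-fold change on the seedling and SAM sides. Tissues are paired within each slide and members within a slide. The tests within a set used this pairing. Between the 2 slide sets, which share replicate numbers, no paired analysis was possible because the tables were treated as normalized apart. No test was made between the sets.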
